A study of Mus musculus with 38 samples.

Results

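The promoters of 5 genes that mark fat cells were followed, library by library, in soleus muscle of mice before, during and after fasting-induced torpor. They were Adipoq, Cfd, Plin1, Fabp4 and Cidec, and a cluster of transcription start sites was assigned to a gene when its highest peak was no more than 500 bp, on the same strand, from a 5′ end that GENCODE annotates for it. Each of the 5 genes had 1 such cluster, so the markers make up 5 of the 10819 clusters in the table and none was absent. Cap analysis of gene expression (CAGE) captures the capped 5′ ends of RNA, a tag being 1 such end, and levels are given as tags per 1000000 mapped tags (TPM). Summed over the clusters, libraries held between 18257657 and 39176649 tags in experiment #1 and between 9359994 and 20914855 in experiment #2.

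All mice were young adult males of C57BL/6J, a standard inbred laboratory strain. Experiment #1 had 28 libraries, 1 per mouse, with 4 Pre (day 1, with food), 8 Mid (day 2, food removed, torpor), 4 Post (day 3, food given back), 4 HiT (day 2, torpor prevented in the warm), 4 Fed (day 2, torpor prevented by food) and 4 Dep (day 2, torpor deprivation by touching). Experiment #2 used another batch of mice, with 2 Pre, 5 Mid and 3 Post libraries. The sources differ on who ate. The methods of the study describe the HiT mice as fasted and the Fed mice as fed, whereas the design text gives the HiT mice food and the labels give the Fed mice as starved; the description in the methods was followed. The 16 Mid, HiT and Dep libraries of experiment #1 are therefore called the libraries without food, and the 12 Pre, Post and Fed libraries those with food. A library could hold RNA of 1 soleus or of both, and the labels do not tell these apart. How much fat came with each muscle was not recorded in the sources used here.

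White adipocytes store triglyceride in a single large droplet and secrete hormones. Adipoq encodes adiponectin and Cfd encodes adipsin (complement factor D), which are secreted by fat cells. Plin1 encodes perilipin 1, which coats the lipid droplet and controls the access of lipases, and Cidec encodes a droplet protein that lets droplets fuse. Fabp4 encodes a fatty acid carrier that is abundant in fat cells and is also made by capillary endothelium and macrophages. A soleus preparation can hold adipocytes between its fibers and on its surface.

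The Adipoq cluster lies on the plus strand at chr16:23146396-23146683 of mm10, with its peak at 23146604, 42 bp from the nearest annotated 5′ end. Cfd lies on the plus strand at chr10:79890765-79891012 with its peak 55 bp from the annotated 5′ end. Plin1 lies on the minus strand at chr7:79732586-79733032 and its peak was 15 bp from the nearest 5′ end. Fabp4 lies on the minus strand at chr3:10208321-10208779 and Cidec on the minus strand at chr6:113435597-113435855, and the peak of each was 2 bp from an annotated 5′ end. A further cluster in the body of Fabp4 peaks at position 10206055 of chromosome 3 and falls outside the 500 bp window, with between 1.27 and 10.4% of the level of the Fabp4 promoter in each library.

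The promoters of 4 of the markers are given here because they rose and fell together from library to library while Plin1 and Cidec parted between groups. The sequences are the RefSeq promoter windows of build GRCm38.p6, from 250 bases before the RefSeq start to 50 after it, at chr16:23146286-23146585 for Adipoq, chr10:79890603-79890902 for Cfd, chr7:79732727-79733026 for Plin1 and chr6:113435711-113436010 for Cidec, each 5′ to 3′ on the strand of its gene. The CAGE peak of Adipoq (23146604) and that of Cfd (79890908) lie downstream of the end of these windows, whereas those of Plin1 and Cidec lie inside them. Capitals mark matches on either strand. The motifs searched were the CCAAT box, the run ATAAAA that resembles the core promoter element, and TTGCNNAA, which resembles a C/EBP site. Fabp4 is not in the sequence table.
Adipoq: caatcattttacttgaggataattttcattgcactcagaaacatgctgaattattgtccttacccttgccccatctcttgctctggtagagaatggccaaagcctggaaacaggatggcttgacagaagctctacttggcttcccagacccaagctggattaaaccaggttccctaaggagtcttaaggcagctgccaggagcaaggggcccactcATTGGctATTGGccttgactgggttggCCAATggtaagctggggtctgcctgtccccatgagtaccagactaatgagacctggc
Cfd: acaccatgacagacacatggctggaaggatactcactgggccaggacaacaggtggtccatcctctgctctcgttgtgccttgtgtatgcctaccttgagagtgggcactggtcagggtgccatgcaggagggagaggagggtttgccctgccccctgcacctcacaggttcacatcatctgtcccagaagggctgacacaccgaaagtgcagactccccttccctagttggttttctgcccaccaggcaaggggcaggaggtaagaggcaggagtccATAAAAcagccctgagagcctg
Plin1: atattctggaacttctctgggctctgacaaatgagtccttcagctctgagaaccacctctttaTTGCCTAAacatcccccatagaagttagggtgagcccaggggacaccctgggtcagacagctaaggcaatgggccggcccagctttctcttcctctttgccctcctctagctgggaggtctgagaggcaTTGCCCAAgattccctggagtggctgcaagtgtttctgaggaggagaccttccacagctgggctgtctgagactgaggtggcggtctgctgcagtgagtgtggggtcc
Cidec: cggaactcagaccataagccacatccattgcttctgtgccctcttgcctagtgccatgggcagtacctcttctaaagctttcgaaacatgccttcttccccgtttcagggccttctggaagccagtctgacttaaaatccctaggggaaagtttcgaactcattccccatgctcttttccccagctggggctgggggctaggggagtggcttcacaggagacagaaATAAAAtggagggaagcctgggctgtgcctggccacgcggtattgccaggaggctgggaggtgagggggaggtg
ATAAAA began 27 bases before the CAGE peak of Cfd and 30 bases before that of Cidec, and it was found in 18.5% of the 32851 mouse promoters of the same length. CCAAT was found 3 times in the Adipoq promoter and in 37.4% of all promoters. TTGCNNAA was found at 2 places in the Plin1 promoter, of which the nearer began 14 bases before the peak, and in 10.8% of all promoters. AGGTCA, a core site of many nuclear receptors, was in 16.3% of all promoters and in none of these 4 windows. No motif occurred in all 4 windows. A match of letters is a description and does not show that a factor binds.

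Adipoq, the adiponectin gene, varied widely between mice of the same group. In TPM, the 4 Pre libraries had 32.1, 21.2, 6.40 and 10.04, and the 4 Post libraries 4.81, 7.46, 22.4 and 20.9. The 8 Mid libraries ran from 1.44 to 41.2 with a median of 7.45. The HiT libraries had 8.49, 3.30, 8.52 and 10.7, the Fed libraries 6.33, 17.9, 10.2 and 25.1, and the Dep libraries 6.11, 12.6, 40.2 and 4.28. Mid 1 and Dep 3 stood above every other library of the experiment, and all 6 groups overlapped. In experiment #2 Adipoq was at 9.16 and 21.8 in the Pre, at 12.3, 37.0, 10.6, 10.8 and 24.8 in the Mid, and at 28.6, 10.6 and 21.2 TPM in the Post libraries, where Mid 10 was the highest.

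The other secreted marker, Cfd, was the most abundant of the 5, with a median of 371 TPM over experiment #1. The Pre libraries had 762.2, 739.6, 229 and 326 TPM, the Post libraries 139, 217, 709 and 572, and the Mid libraries from 79.7 to 1012 with a median of 293. The HiT libraries had 385, 169, 368 and 468, the Fed libraries 195, 595, 389 and 814, and the Dep libraries 199, 375, 1459 and 144. The order of the libraries resembled that of Adipoq, with Dep 3 and Mid 1 again the highest. In experiment #2 the Pre libraries had 253 and 459, the Mid libraries 402, 987, 179, 320.3 and 623, and the Post libraries 615, 216 and 401 TPM.

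Plin1, the perilipin of the adipocyte droplet, was at 41.8, 29.2, 9.04 and 12.6 TPM in the Pre libraries, at 6.90, 10.6, 35.9 and 32.2 in the Post and at 13.7, 31.02, 14.6 and 40.9 in the Fed. It was at 4.94, 2.77, 4.32 and 6.30 in the HiT and at 4.42, 8.08, 19.5 and 2.12 in the Dep libraries, and it ran from 1.04 to 19.7 with a median of 5.23 in the Mid. All 4 HiT libraries were below all 4 Pre libraries, where 17.9% of all clusters did not overlap from Pre to HiT in either direction, while the Mid and Dep groups reached into the range of Pre, Post and Fed through Mid 1, Mid 5, Mid 6, Dep 2 and Dep 3. In experiment #2 Plin1 was at 7.56 and 20.3 in the Pre, at 5.88, 18.8, 4.28, 4.53 and 9.39 in the Mid, and at 35.8, 12.5 and 25.7 TPM in the Post.

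Cidec, the droplet fusion protein, had group means that ran from Dep (19.2 ± 25.9 TPM, SD, n = 4) and Mid (12.96 ± 15.6, n = 8) down to Pre (4.63 ± 2.82, n = 4). The Pre libraries had 7.24, 6.77, 1.51 and 3.01 TPM, the Post libraries 1.56, 3.29, 7.46 and 8.01, and the Fed libraries 2.47, 7.68, 3.92 and 8.98. The Mid libraries ran from 1.74 to 47.3 with a median of 7.57, the HiT libraries had 6.78, 2.27, 6.64 and 7.90, and the Dep libraries 5.35, 9.15, 57.9 and 4.24. The means of Dep and Mid were carried by Dep 3 and Mid 1, and every group overlapped every other. In experiment #2 Cidec was at 2.58 and 6.80 in the Pre, at 8.30, 20.2, 3.71, 8.76 and 18.8 in the Mid, and at 11.3, 3.65 and 6.99 TPM in the Post.

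Fabp4, the fatty acid carrier, was the least variable of the markers, ranging 8.18-fold over experiment #1 against 28.5-fold for Adipoq and 40.4-fold for Plin1. Its libraries had 189, 138, 64.7 and 90.3 TPM in Pre, 52.4, 71.5, 139 and 119.9 in Post, 121, 73.5, 83.2 and 99.1 in HiT, 47.4, 112, 105 and 178 in Fed, and 109, 151, 388 and 85.0 in Dep. The Mid libraries ran from 73.7 to 386 with a median of 106. In experiment #2, where the median over libraries was 274 TPM against 107 in experiment #1, the Pre libraries had 165 and 316, the Mid libraries 277, 550.3, 245, 272 and 435, and the Post libraries 364, 179 and 212.

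**Figure D1:**
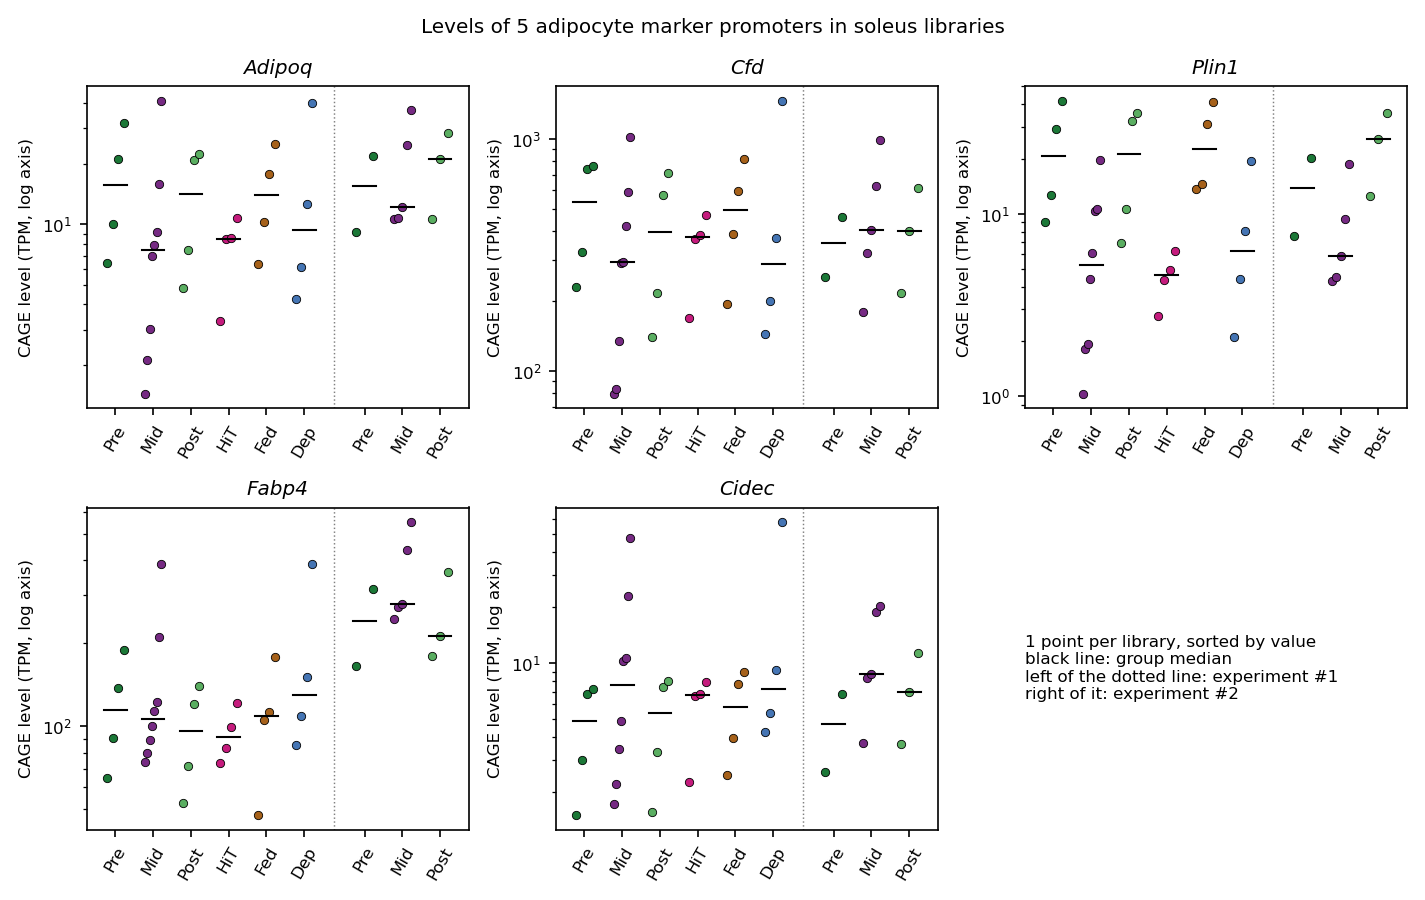
Level of each marker promoter in TPM on a log axis, with 1 point per library, the group median as a line, experiment #1 left and experiment #2 right of the dotted line. Within the Mid group of experiment #1 Adipoq ran from 1.44 to 41.2 TPM, and the ranges of the 6 groups overlapped in most panels.

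Groups next to each other in the order of their mean levels could not be told apart. For each marker the 6 groups of experiment #1 were ranked by mean TPM and neighbours were compared on log2(TPM + 0.1) by an exact two-sided permutation test. None of the 25 pairs of neighbours differed beyond the spread of their libraries, the lowest unadjusted p was 0.171 (exact permutation, Plin1, Post against Dep), and the ranges of all 25 pairs overlapped. Groups farther apart in the order were not compared by this test. Neighbours are the groups closest in mean by the same values, so this result does not show that the groups are alike. A comparison of 4 with 4 libraries cannot give a p below 0.0286 here, and one of 8 with 4 none below 0.00202. Counting error was small beside these spreads. Exact (Clopper-Pearson) 95% intervals reached, as the mean of both sides, 0.981 to 4.29% from a Cfd value and 4.79 to 35.8% from a Plin1 value. For Cidec they reached 4.96 to 38.3%. The lowest Plin1 value, 1.04 TPM in Mid 7, came from 33 tags and had an interval from 0.713 to 1.45 TPM. In bulk tissue, fewer adipocytes and less RNA of a marker per adipocyte cannot be told apart.

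The markers rose and fell together within groups. With the group means removed, the SD of log2(TPM + 0.1) of Adipoq over the Mid libraries of experiment #1 was 1.56, against a median of 0.25 over the 10507 clusters with a mean of at least 1 TPM there, and 99.5% of these clusters varied less. The HiT group was less spread, with an SD of 0.31 for Fabp4, below the median of 0.40 over all clusters there (14.8% varied less), and 0.49 for Plin1 (75.2% varied less). The SD in HiT was 0.74 for Adipoq (97.4% varied less), 0.65 for Cfd (94.1%) and 0.81 for Cidec (98.3%). Over the 28 libraries of experiment #1, Pearson's r of log2(TPM + 0.1) between markers was 0.97 for Adipoq and Cfd, 0.89 for Adipoq and Plin1, 0.78 for Adipoq and Fabp4, and 0.76 for Adipoq and Cidec, with Spearman's rho of 0.98, 0.86, 0.81 and 0.73 (permutation tests, adjusted p of at most 7.5e-05), and without the 2 libraries farthest from the median of Adipoq each r was 0.72 or more. For Plin1 and Cidec, r was 0.43 (rho 0.42, permutation test with 100000 draws, adjusted p = 0.0214 over 10 pairs), and 0.32 without the 2 libraries farthest from the median of Plin1. When the group means were removed, r lay between 0.88 and 0.99 for all 10 pairs and was 0.91 for Plin1 and Cidec, with an adjusted permutation p of 1e-05 at every pair, the smallest these draws can give. The same held in experiment #2, where r of Plin1 and Cidec over its 10 libraries was 0.33 (rho 0.25, adjusted permutation p = 0.381) with the groups' means left in and 0.91 with them removed (adjusted permutation p = 0.00403).

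**Figure D2:**
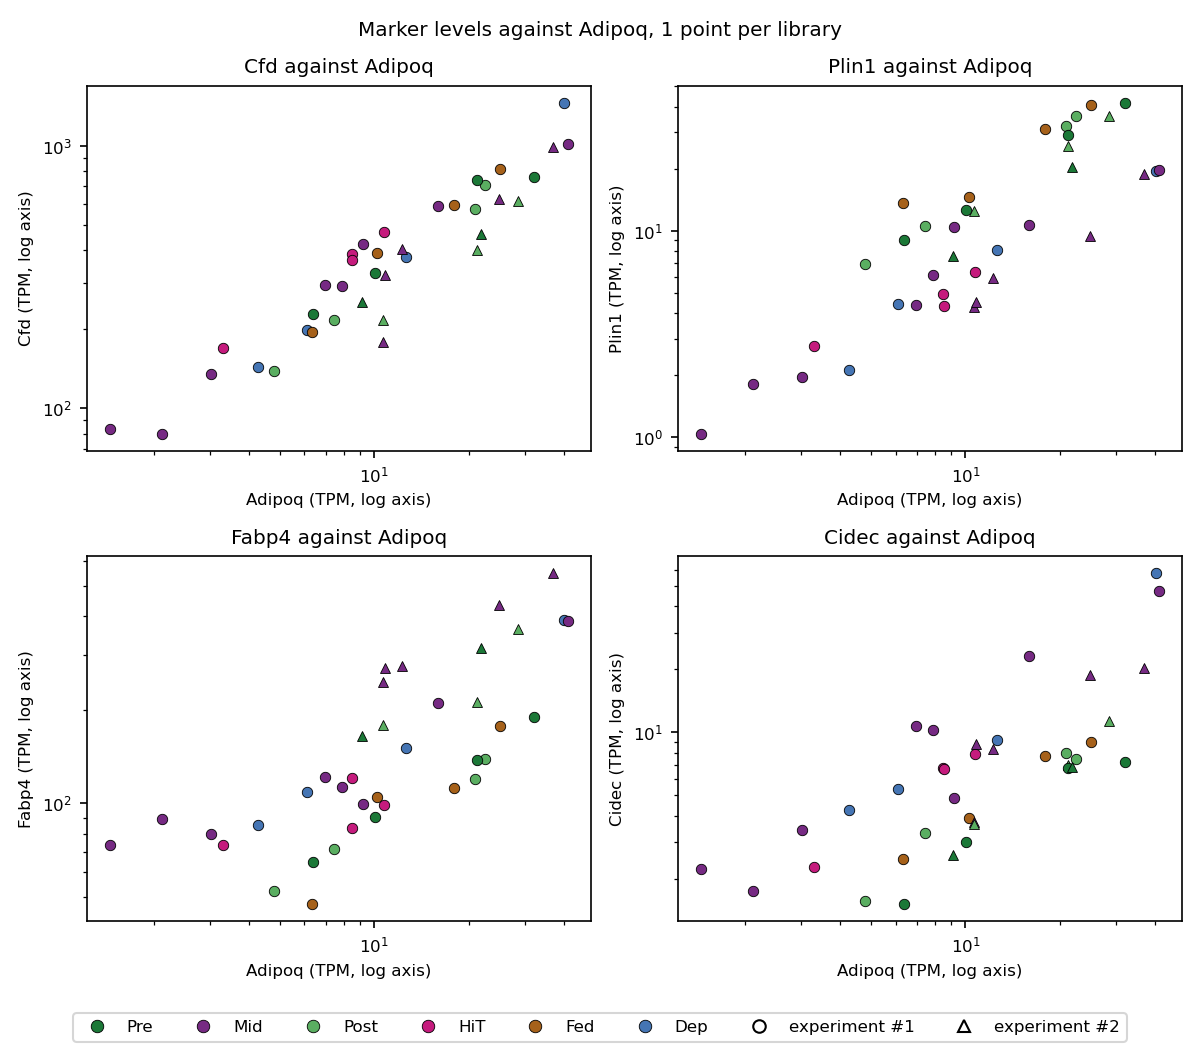
Level of Cfd, Plin1, Fabp4 and Cidec against Adipoq in TPM on log axes, 1 point per library, with circles for experiment #1, triangles for experiment #2 and a colour per condition. Cfd follows Adipoq closely (r = 0.97 in experiment #1), although its ratio to Adipoq was higher in every HiT than in every Pre library. The Plin1 and Cidec panels show parallel bands by condition.

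The ratio of 2 markers within a library does not depend on the scaling of the library or on how much fat tissue came with the muscle, as long as both transcripts come from the same cells. The Plin1 to Adipoq ratio was 1.30, 1.37, 1.41 and 1.26 in the Pre libraries, 1.43, 1.42, 1.60 and 1.54 in the Post and 2.16, 1.74, 1.43 and 1.63 in the Fed. It was 0.582, 0.838, 0.507 and 0.587 in the HiT, 0.723, 0.641, 0.485 and 0.495 in the Dep, and from 0.478 to 1.13 with a median of 0.693 in the Mid. All 16 libraries without food thus lay below all 12 libraries with food, whose lowest ratio was 1.26. Mid 6, at 1.13, was the nearest to them.

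Cidec moved the other way relative to Adipoq. The Cidec to Adipoq ratio was 0.226, 0.319, 0.235 and 0.300 in the Pre, 0.324, 0.441, 0.333 and 0.383 in the Post and 0.390, 0.430, 0.383 and 0.358 in the Fed libraries. It was 0.799, 0.687, 0.780 and 0.736 in the HiT, 0.875, 0.725, 1.44 and 0.991 in the Dep, and from 0.529 to 1.54 with a median of 1.22 in the Mid. The 2 sets did not overlap, and Mid 6 was again the nearest at 0.529 against a highest ratio of 0.441 with food. The division by food was made after the ratios had been seen and no test was made of it. Over all clusters, the ratio to Adipoq did not overlap between these 2 sets for 19 of 10775, or 0.176%, Plin1 and Cidec among them. For a cluster that does not follow Adipoq, this ratio carries the spread of Adipoq itself, so few such clusters can separate. From Pre to HiT, 17.9% of all clusters did not overlap in level and 3.31% in this ratio. The shares for ratios, here and below, therefore do not measure how rare the split of Plin1 and Cidec is. In the comparisons of 2 groups, both ratios did not overlap from Pre to Mid (0.288% of all clusters), Mid to Post (0.334%), Fed to Mid (0.344%), Pre to HiT (3.31%) and Pre to Dep (0.715%), and neither did so from HiT to Mid (0.427%) or from Mid to Dep (0.0186%). Both ratios were higher in every Fed than in every Pre library (0.205%).

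The ratio of Cidec to Plin1, which leaves Adipoq out, was between 0.167 and 0.310 in the 12 libraries with food and between 0.467 and 2.97 in the 16 without. Experiment #2 gave ratios between 0.272 and 0.341 in its 5 Pre and Post libraries and between 0.867 and 2.00 in its 5 Mid libraries. Its Plin1 to Adipoq ratios were 0.825 and 0.9303 in the Pre, 1.25, 1.18 and 1.21 in the Post, and 0.480, 0.509, 0.403, 0.421 and 0.378 in the Mid, without overlap from Pre to Mid (1.90% of all clusters) or from Mid to Post (1.20%). Its Cidec to Adipoq ratios were 0.282 and 0.311 in the Pre, 0.397, 0.343 and 0.330 in the Post, and 0.677, 0.548, 0.349, 0.813 and 0.757 in the Mid libraries, where Mid 11 fell inside the range of the Post.

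Cfd stayed closer to Adipoq. The Cfd to Adipoq ratio was 23.8 to 35.8 in the Pre, 27.3 to 31.6 in the Post, 30.7 to 38.02 in the Fed and 29.7 to 36.3 in the Dep libraries. It was 43.1 to 51.2 in the HiT, without overlap with the Pre, as was the ratio to Adipoq of 3.31% of all clusters, and 24.6 to 57.8 in the Mid. Summed levels of genes of other cell types differed between HiT and Pre as well. The summed level of the macrophage genes had a median of 257 TPM in HiT (160 to 477) against 78.4 (58.3 to 107) in Pre, that of the fibro-adipogenic progenitor genes 3928 (2860 to 6693) against 3116 (2928 to 4097), and that of the slow muscle genes 14863 (8938 to 17461) against 20296 (18558 to 22017), with overlapping ranges for the progenitor genes. The sum of the fast muscle genes was lower as well, at 11998 (7886 to 13997) against 16145 (14174 to 19214). Those of the brown fat and red blood cell lists were also lower without overlap, and those of the endothelium, Schwann cell, tendon and neutrophil lists overlapped. The brown fat sum held only the clusters of Cidea, Ppara and Cox8b, because Ucp1, Elovl3 and Dio2 had none. Which cells that RNA came from was not tested. No test was made of these sums, and their part in the HiT values of the markers was not tested. The Fabp4 to Adipoq ratio was 5.73 to 10.9 in the 12 libraries with food and 9.23 to 51.02 in the 16 without, and its highest values, 51.02 and 42.2, were in Mid 7 and Mid 4, which had the least Adipoq.

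**Figure D3:**
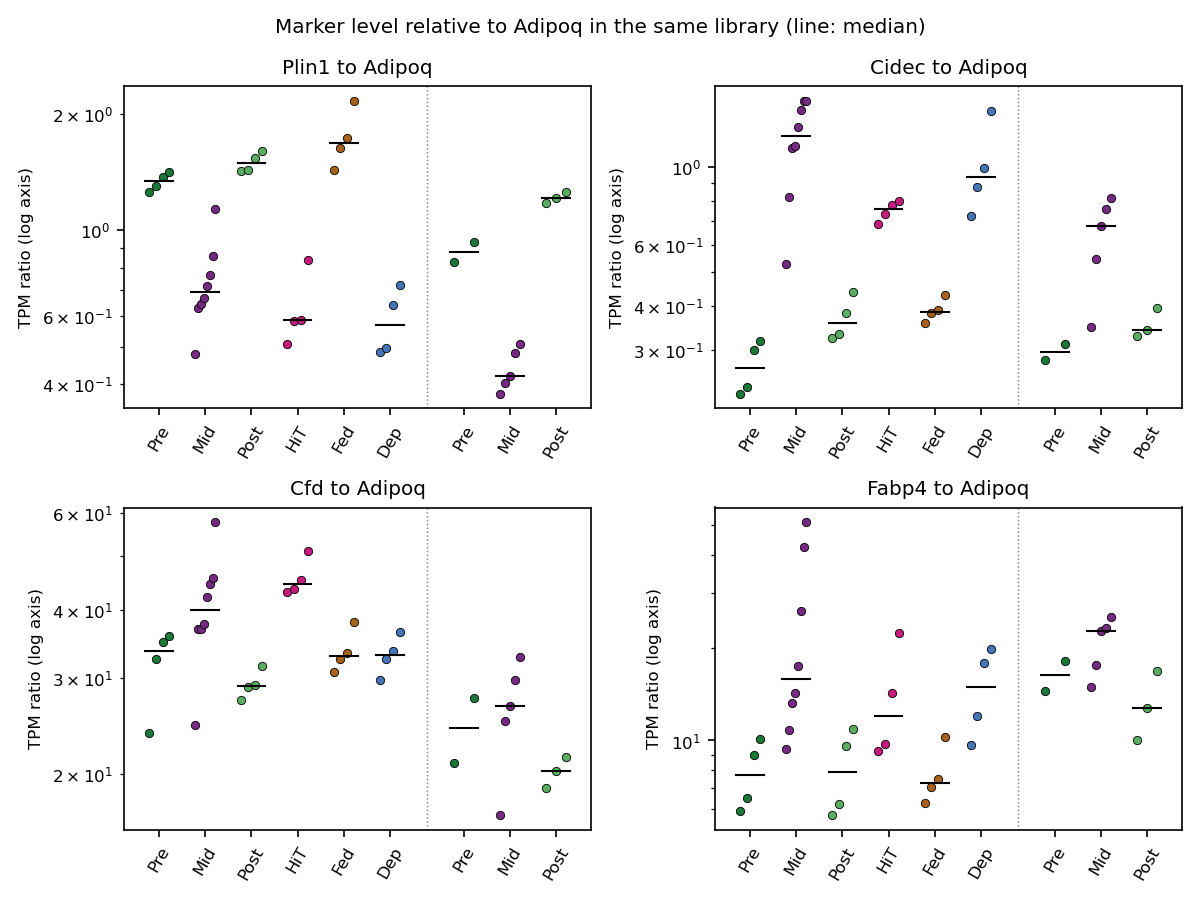
Ratio of the TPM of Plin1, Cidec, Cfd and Fabp4 to that of Adipoq in the same library, on log axes, by group, with a line at the median. Plin1 to Adipoq is 1.26 or more in every Pre, Post and Fed library of experiment #1 and 1.13 or less in every Mid, HiT and Dep library, and Cidec to Adipoq is split in the opposite direction.

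In the test on tag counts across all clusters (edgeR's quasi-likelihood F test after TMM normalization, Benjamini-Hochberg FDR below 0.05), Plin1 was the only marker past the threshold. From Pre to Mid in experiment #1 it fell by 1.64 on the log2 scale (SE 0.60, FDR = 0.0390), 1 of 5 markers, where 14.8% of all clusters fell and 15.4% rose. Cidec had a log2 fold change of 1.53 (FDR = 0.146). Adipoq had -0.60, Cfd -0.40 and Fabp4 0.35. Without any one of Pre 1, Pre 2, Mid 2, Mid 3, Mid 4, Mid 7 or Mid 8, Plin1 missed the threshold, with log2 fold changes from -2.04 to -1.14 and FDRs from 0.0105 to 0.210 over the 12 fits that leave out a library.

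From Mid to Post, Plin1 rose by 1.54 (SE 0.60, FDR = 0.0463), where 17.5% of all clusters rose. Cidec had -1.38 (FDR = 0.179) and Fabp4 -0.64. Leaving out Mid 2, Mid 3, Mid 4, Mid 7, Mid 8, Post 3 or Post 4 left Plin1 short of the threshold, with log2 fold changes from 1.13 to 1.94 and FDRs up to 0.214. The Mid libraries are shared by these comparisons, so that they are not independent of each other.

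From Fed to Mid, Plin1 was down-regulated by -1.74 on the log2 scale (SE 0.59, FDR = 0.0244), where 18.6% of all clusters were lower, and it missed the threshold without Fed 2 or Fed 4 (FDRs up to 0.0916). From Pre to HiT it was down-regulated by -2.07 (SE 0.75, FDR = 0.0346), where 14.9% were lower, and it missed the threshold without Pre 1, Pre 2, HiT 1, HiT 2 or HiT 3 (FDRs up to 0.130). This was the only one of the 8 comparisons made in experiment #1 in which the levels of a marker in TPM did not overlap between the 2 groups, which 17.9% of all clusters did. From HiT to Mid, none of the 5 markers passed the threshold, against 41.0% of all clusters in either direction, and Plin1 had 0.43 and Cidec 0.91. Both were smallest without Mid 1 (Plin1 0.03, Cidec 0.23) and largest without HiT 4 (0.86 and 1.31). None passed it from Mid to Dep (2.03% of all clusters) or from Pre to Fed (11.2%). From Pre to Dep none did (25.8%), with 2.10 for Cidec (FDR = 0.0784) and -1.35 for Plin1 (FDR = 0.176). Without Dep 3, Cidec had 0.67 (FDR = 0.591) and Plin1 -2.03, and without Pre 1 Plin1 had -0.85. Adipoq ran from -0.89 (Pre to HiT) to 0.54 (Mid to Dep) over the 8 comparisons of experiment #1, Cfd from -0.40 to 0.56 and Fabp4 from -0.64 to 0.71, with no FDR below 0.249. The changes from Mid to Dep turned on Dep 3, without which Adipoq had -0.36 and Cfd -0.46. At an unadjusted p below 0.05, 0 of the 5 passed from HiT to Mid, from Mid to Dep and from Pre to Fed, and 1, Cidec, from Pre to Dep, and DESeq2 called 0 in all 4, where edgeR gave 48.8%, 19.2%, 27.3% and 37.4% of all clusters an unadjusted p below 0.05.

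In experiment #2 no marker passed the threshold from Pre to Mid, where 9.74% of all clusters did, or from Mid to Post, where 16.4% did. Plin1 had -0.60 from Pre to Mid and 1.43 from Mid to Post (FDR = 0.0779), and it passed without Mid 10. Cidec had 1.45 and -0.78. At an unadjusted p below 0.05, 0 of the 5 markers were found from Pre to Mid and 1, Plin1, from Mid to Post, where 24.4% and 30.2% of all clusters had such a p, and DESeq2 called 0 in both. The lanes of the sequencer were partly aligned with the groups. Both Pre libraries and Mid 9 to 12 were on lane 3, and Mid 13 and the Post libraries on lane 4, and with the lane as a term the change of Plin1 from Mid to Post was 1.24 (FDR = 0.487). The difference between the experiments in either change was past the threshold for none of the 5 markers, and for none of all clusters (edgeR; at an unadjusted p below 0.05, 0 of the markers and 5.09% and 6.30% of 10819 clusters).

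A fit with the Adipoq level of each library as a covariate asks how the other 4 markers changed at equal Adipoq. It was added after the data had been seen, and it cannot tell a change of the marker from a change of Adipoq per adipocyte. With it, the standard error of Plin1 from Pre to Mid went from 0.60 to 0.16. From Pre to Mid, Cidec rose by 2.15 (SE 0.23, FDR = 5.63e-07) and Fabp4 by 0.83, and Plin1 fell by 0.94 on the log2 scale, 3 of 4 markers where 28.7% of all clusters passed. From Mid to Post, Plin1 rose by 1.09, while Cidec fell by 1.69, Fabp4 by 0.94 and Cfd by 0.37, where 34.2% passed. From Fed to Mid, Cidec rose by 1.62 and Fabp4 by 0.89, and Plin1 fell by 1.30 (34.2% of all clusters).

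With the same covariate from Pre to HiT, Cidec rose by 1.50 and Cfd by 0.45, and Plin1 fell by 1.19 (35.1% of all clusters). From Pre to Dep, Cidec rose by 1.91 and Fabp4 by 0.77, and Plin1 fell by 1.21 (26.8%). From HiT to Mid, Cidec rose by 0.65 and Fabp4 by 0.46 (41.2%). None of the 4 passed from Mid to Dep (1.55%) or from Pre to Fed (11.9%). In experiment #2, Plin1 fell by 1.04 from Pre to Mid (FDR = 0.0018, 9.94%), and from Mid to Post it rose by 1.47 while Fabp4 fell by 0.61 (15.3%). Cidec had 1.05 from Pre to Mid (FDR = 0.0601) and -0.81 from Mid to Post (FDR = 0.0519). In experiment #2 the counts moved with Mid 11: without it 2 markers passed from Pre to Mid and 4 from Mid to Post.

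**Figure D4:**
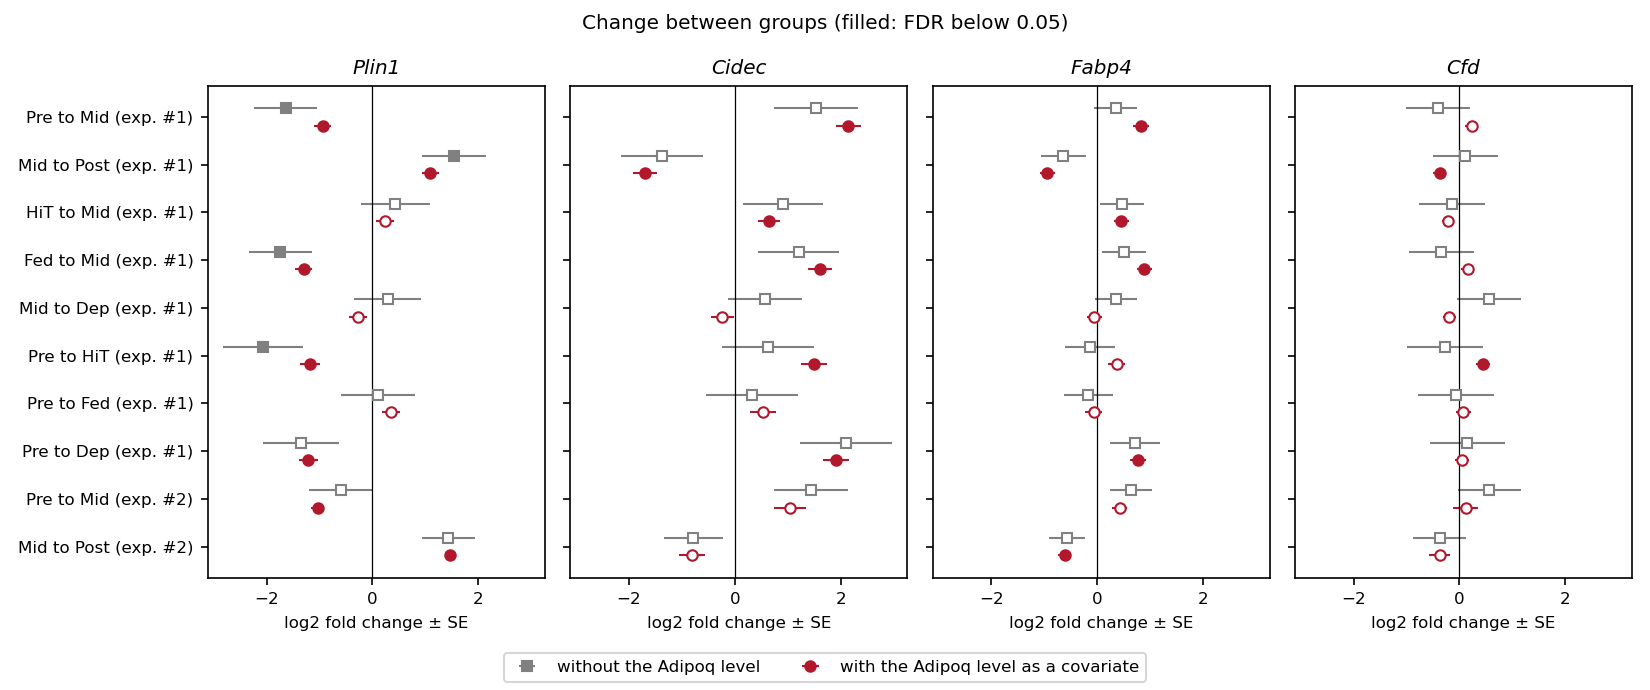
Log2 fold change with SE of Plin1, Cidec, Fabp4 and Cfd in 10 comparisons, without (squares) and with (circles) the Adipoq level of the library as a covariate; filled symbols have an FDR below 0.05. With the covariate the error bars shrink, and Plin1 and Cidec point in opposite directions from Pre to Mid (-0.94 and 2.15).

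Which other promoters followed the fat cell signal was asked by the slope of each cluster on the log2 Adipoq level within groups. In experiment #1, 296 of 10775 clusters had a positive slope past the FDR threshold and 18 a negative one. All 4 remaining markers were positive, where 2.75% of all clusters were. The slope was 1.03 for Cidec (SE 0.06), 0.92 for Plin1 (SE 0.05), 0.90 for Cfd (SE 0.03) and 0.53 for Fabp4 (SE 0.04), in log2 units per log2 unit of Adipoq. In experiment #2 the slopes were 1.09, 1.08, 0.98 and 0.65, where 0.296% of all clusters were positive, and 31 of the 32 clusters with a positive slope there had one in experiment #1 as well, 96.9% of the list of experiment #2 and 10.5% of that of experiment #1. Without Mid 1 the count in experiment #1 was 173, and in experiment #2 it ran from 2 (without Mid 10) to 36 when a library was left out, with Cidec past the threshold in 2 of these 10 fits at slopes from 0.94 to 1.22.

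The clusters with the smallest p for a positive slope belonged to Acp5 (0.94), Hp (haptoglobin, 0.88), Art3 (0.82), Sncg (gamma-synuclein, 0.82), Ces1d (a lipase of fat and liver, 0.78), C4b (complement component 4, 0.70), Scd1 (stearoyl-CoA desaturase, 0.92), Arxes2 (0.97), Lep (leptin, the hormone of fat stores, 1.09) and Aoc3 (a surface amine oxidase of adipocytes, 0.66). In experiment #2, 6 of these 10 also passed and Art3, C4b, Arxes2 and Lep did not. The negative slopes were shallow, with -0.10 for Cacna2d1 (a calcium channel subunit) and -0.12 for Smim13 at the smallest p. In experiment #2 these clusters had 0.006 and -0.08, and 0 of 10815 clusters had a negative slope past the threshold. When a library was left out of experiment #1, 4 to 31 clusters had one. By likeness, the Pearson correlation with Adipoq of log2(CPM + 1) over the 28 libraries with group means removed, Acp5 (0.98), Hp (0.98), Art3 (0.97), Nnat (0.97) and Sncg (0.97) came first among 9436 clusters. Nnat was at 0.74 in experiment #2, the lowest of the 10 clusters most like Adipoq. The clusters most like each of the other markers were Hp for Cfd (0.98), Acp5 for Plin1 (0.98), Car5b for Fabp4 (0.96) and Arxes2 for Cidec (0.97).

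Of 27 further adipocyte genes, 22 had a cluster, and 15 of their 27 clusters had a positive slope past the threshold, with a median of 0.13 over the list against -0.0048 over all clusters. Nnat (1.30), Lep (1.09), Retn (resistin, 1.02), Sncg and Pck1 (0.80) were the steepest. Lipe, which encodes hormone-sensitive lipase, had a cluster at 25390116 of chromosome 7 with a slope of 0.47 (FDR = 2.38e-08) and one at 25388980 with a slope of 0.02 (FDR = 0.893). Lpl, the lipoprotein lipase gene, had a slope of 0.01 and both Pnpla2 clusters one of 0.03, short of the threshold. Pparg, Adrb3, Acvr1c, Lgals12 and Trarg1 had no cluster.

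Of the fatty acid synthesis genes, 8 of 16 clusters followed Adipoq, among them Fasn (fatty acid synthase, 0.54), Slc25a1 (citrate carrier, 0.40) and the Acaca (acetyl-CoA carboxylase) cluster at 84173296 of chromosome 11 (0.59). Of the lipid droplet and lipolysis genes 4 of 16 clusters did. Plin4, Pnpla2, Lipe and Lpl are in this list and in that of further adipocyte genes, so their clusters count in both. Positive slopes were found for 2 of 12 clusters of fibro-adipogenic progenitor genes (Gsn, 0.21, and Dpt, 0.35), and for 0 of 13 of capillary endothelium, 0 of 9 of macrophages, 0 of 25 of slow muscle and 0 of 17 of fast muscle, where 2.75% of all clusters had one, so that a count of 0 in lists of this size does not set them apart from the rest. The slopes of the endothelium list lay between -0.01 and 0.13 and those of the macrophage list between 0.02 and 0.17. Of the brown fat list, Ucp1, Elovl3 and Dio2 had no cluster at all, and the 3 clusters present, of Cidea, Ppara and Cox8b, had slopes from -0.04 to -0.01. These 3 clusters summed to 2881 to 5970 TPM in experiment #1, and which cells this RNA came from was not tested. Slow muscle genes were far more abundant than the markers, with summed levels of 8938 to 26224 TPM in experiment #1.

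**Figure D5:**
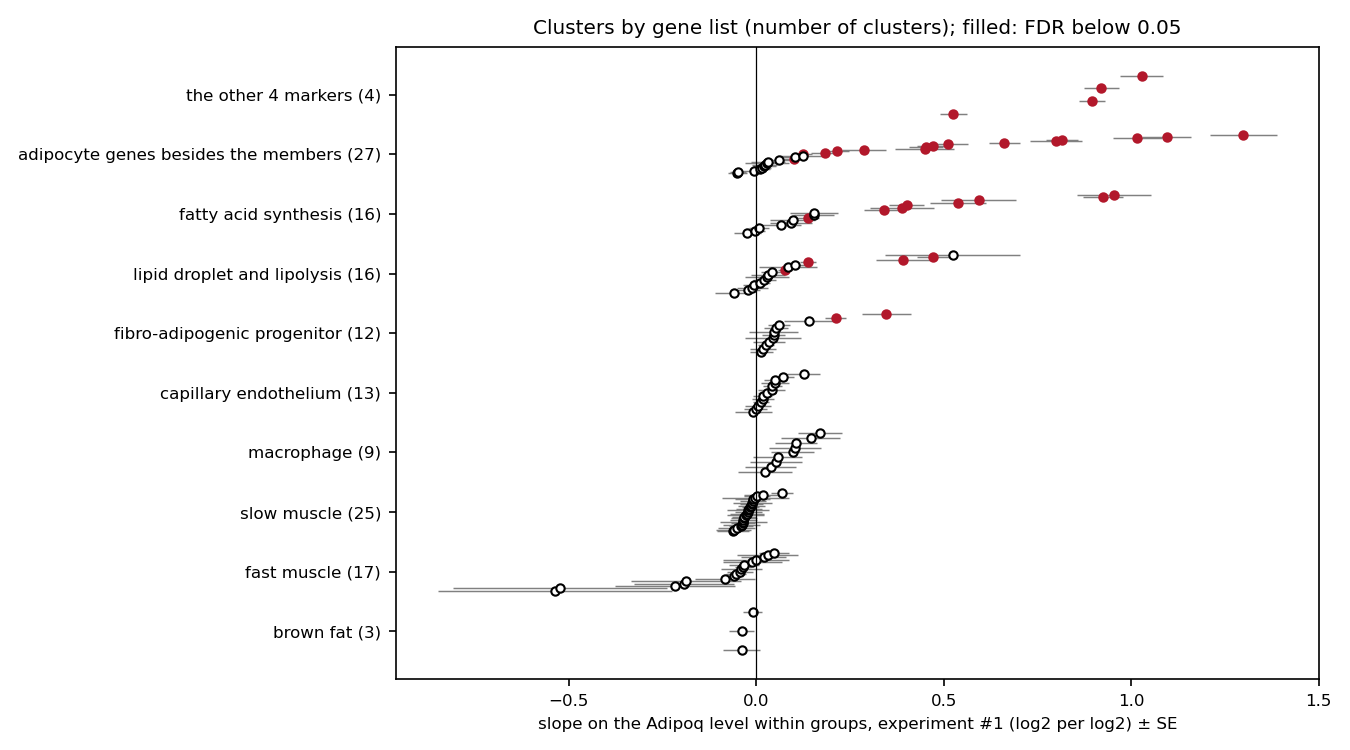
Slope of each cluster on the Adipoq level within the groups of experiment #1 (log2 per log2, with SE) by gene list, with the number of clusters in brackets and filled points at an FDR below 0.05. The other 4 markers lie between 0.53 and 1.03, and the clusters of the endothelium, macrophage, muscle and brown fat lists are all unfilled.

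Between groups, 12, 14 and 13 of the 16 fatty acid synthesis clusters were lower in Mid, HiT and Dep than in Pre, and none was higher, where 14.8%, 14.9% and (in either direction) 25.8% of all clusters passed. From Pre to Mid of experiment #1, the median of the list was -1.25 against 0.01 over all clusters, and the largest decreases were those of Acaca at 84173296 (-4.00), Fasn (-3.09) and Pnpla3 (-2.79). With Adipoq as a covariate 11 of the 16 fell, and these 3 had -3.59, -2.67 and -2.36. Of the 16 lipid droplet and lipolysis clusters 9 rose and 3 fell (15.4% and 14.8% of all clusters), with Angptl4, an inhibitor of lipoprotein lipase, at 2.62, Pnpla2 (adipose triglyceride lipase, the cluster at 141457036 of chromosome 7) at 2.18, and Plin5, the perilipin of oxidative muscle, at 1.88, against Angptl8 (-4.76), G0s2, an inhibitor of adipose triglyceride lipase (-2.72), and Plin3 (-0.39). Of the 27 clusters of further adipocyte genes 10 rose and 3 fell, against the same shares, led by Pnpla2, Plin4 (1.19) and Agpat2 (-1.68). The last 2 lists share Plin4, Pnpla2, Lipe and Lpl, so their counts are not separate results.

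From Mid to Post, where 17.5% of all clusters rose and 17.5% fell, the same lists gave 10 of 16 fatty acid synthesis clusters higher, with Acaca at 4.19 and Fasn at 3.32, and 2 higher and 10 lower among lipid droplet and lipolysis clusters, with Angptl8 at 4.91 and Angptl4 at -2.93. Among the further adipocyte genes, 3 clusters were higher, led by Agpat2 (1.48), and 11 lower, led by Pck1 (-1.73) and Plin4 (-1.33). In experiment #2, 8 of 16 fatty acid synthesis clusters fell from Pre to Mid and 13 rose from Mid to Post, where 9.74% and 16.4% of all clusters passed in either direction. From Pre to Fed, 1 of 16 rose and none fell (11.2%), and from Mid to Dep none of the 3 lists had a cluster past the threshold (2.03%). From HiT to Mid, 6 of 16 fatty acid synthesis clusters rose, where 41.0% of all clusters passed in either direction, which does not set the list apart. These lists hold genes that muscle fibers also express, and the share of each change that came from fat cells was not tested.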

How the data were processed

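Promoter activity was measured by non-amplified non-tagging Illumina CAGE in soleus muscle, with 1 library per mouse and 38 libraries. Reads were trimmed by the authors and aligned to mm10 (GRCm38) with BWA and HISAT2 according to their processing notes, and clustered the 5′ ends of tags with PromoterPipeline; tool versions are not given in the sources used here. The counts deposited by the authors are tags per cluster and library, not normalized. TPM values, also deposited, scale them to 1000000 mapped tags. All 76 per-library columns entered, and 0 were unused. The sum of counts over clusters was 18257657 to 39176649 per library in experiment #1 and 9359994 to 20914855 in experiment #2. Intervals cover counting error only.

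Clusters were assigned to the GENCODE M21 gene with the nearest 5′ end on the same strand within 500 bp. Counts were tested with edgeR 4.0.16 in R 4.3.3 (TMM, quasi-likelihood F test, all groups of an experiment in 1 fit, all clusters with any tag), with Benjamini-Hochberg FDRs over all clusters and a threshold of 0.05. The Adipoq slope adds the log2 CPM of Adipoq (prior count 0.5) to the group terms, and Adipoq is then left out of the clusters tested. Correlations and order tests used log2(TPM + 0.1). The fits were tested on simulated counts with known changes. Alternatives were DESeq2 1.42.0, other scalings, filterByExpr, fits of only the compared groups or of all 38 libraries, a replicate block, the sequencing lane, each library left out, and, added after seeing the data, the Adipoq or Cfd level as a covariate.

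The 5 markers and the gene lists were chosen with earlier results of these data known. The named genes are the markers, the 10 clusters with the smallest p for a positive Adipoq slope and the 5 for a negative one. The rule also takes the clusters most like each marker. From the lists of further adipocyte, fatty acid synthesis, and lipid droplet genes it takes up to 3 clusters per direction with the largest change. A few clusters of the lists outside this rule, such as those of Lipe and Lpl, were chosen after their values were seen. The 13 lists also covered Schwann cells, tendon, neutrophils and red blood cells, and in each of these 4 lists 0 clusters had a slope past the threshold in experiment #1. Promoter sequences are from RefSeq.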

Additional observations from a re-analysis of the deposited data

Results flagged for a closer look

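In a group of 4 to 10 libraries, a value was singled out when its gap to the nearest other library exceeded Dixon's 95% critical share of the range of the group. This was tested on TPM and ratios without taking logs, for 70 combinations of a group with a marker level or ratio. Chance alone would flag about 1 in 20 if the values were normally distributed, which was not tested. Of the 70 combinations, 4 were flagged. In the Mid group of experiment #1, Mid 1 stood above the others for Adipoq (41.2 TPM, the next library 15.9), Fabp4 (386, next 209.9) and Cidec (47.3, next 23.2). In the Dep group, Dep 3 stood above the others for Cidec (57.9, next 9.15). No ratio between markers was singled out in this way.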

How the results depend on the processing

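For the changes of Plin1 that passed without the Adipoq covariate, 43 of 70 alternative values stayed past the threshold and 0 changed direction. For the marker changes that passed with the covariate, 249 of 255 stayed and 0 changed direction. The number of markers called was 0 to 1 when a library was left out, from Pre to Mid, Mid to Post, Fed to Mid and Pre to HiT in experiment #1 and from Mid to Post in experiment #2. It was 0 from Pre to Mid and from Mid to Post when only the compared groups were fitted, 0 from Mid to Post without TMM, and 2 (Plin1 and Cidec) from Pre to Mid with all 38 libraries and the experiment as a term. Clusters with a positive Adipoq slope numbered 159 and 7 in experiments #1 and #2 without group terms, and 173 to 334 and 2 to 36 when a library was left out. With the Adipoq covariate in experiment #2, 1 to 2 markers passed from Pre to Mid and 2 to 4 from Mid to Post when a library was left out. The cause of these differences was not tested.

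Without Dep 3, the changes from Mid to Dep turned negative, and over the libraries left out they ran from -0.36 to 1.23 for Adipoq, -0.46 to 0.95 for Cfd, -0.39 to 0.69 for Plin1 and -0.86 to 1.24 for Cidec. Plin1 ran from -0.18 to 0.61 from Pre to Fed and from -1.13 to 0.25 from Pre to Mid of experiment #2, where Adipoq ran from -0.088 to 1.12. Adipoq from Mid to Post of experiment #2 was 0.0019 with DESeq2, 0.082 without TMM and 0.042 with upper-quartile scaling, and ran from -0.36 to 0.35 with a library left out. Without TMM, all clusters called fell from 3253 to 1458 from Pre to Mid, from 3771 to 1630 from Mid to Post, from 3797 to 2181 from Fed to Mid and from 3604 to 1974 from Pre to HiT, and the median of all clusters shifted by up to -0.18 (Pre to Dep). From Mid to Dep, 219 clusters were called, 9 without TMM, 479 with DESeq2 and 2 with only the compared groups. From Mid to Post of experiment #2, 1772 were called and 485 with the lane as a term.

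Replicate numbers recur across groups in experiment #1, but same-numbered libraries did not deviate together: over 60 pairs of same-numbered libraries of different groups their correlation ran from -0.63 to 0.46 with a median of -0.09. With a replicate block, 0 markers were called from Pre to Mid (Plin1 -1.53), Mid to Post (1.47) and Fed to Mid (-1.72), and Plin1 stayed called from Pre to HiT (-2.04); 254 clusters had a positive Adipoq slope. No paired analysis was possible in either experiment because each library came from a different mouse.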

Other observations

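The labels of 12 libraries of experiment #1 end in a letter whose meaning is not stated. Adipoq ran from 3.03 to 41.2 TPM with a median of 8.33 in these and from 1.44 to 40.2 TPM with a median of 9.63 in the 16 others. The further cluster in the body of Fabp4 had 1.49 to 11.8 TPM.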
